A study of Mus musculus with 13 samples.

Results

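The peaks described here are the sites of Argonaute (AGO) crosslinking that the authors' peak table assigned to a 5'UTR or to the flank upstream of a gene (labelled upstream_10k). Members were taken by their region annotation alone, from peaks with a position and with the ribosomal RNA gene Rn45s left out. This gave 242 of 18284 peaks. Of these, 133 were 5'UTR peaks in 101 named genes and 109 were upstream peaks, for which the table names no gene. Every member was 80 bases long, and 9 of the 5'UTR peaks also carried another region annotation.

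AGO CLIP, which sequences RNA fragments crosslinked to AGO by ultraviolet light, was done on dissected cortex. The mice were C57BL6 animals of 7 to 8 weeks. The 4 sham libraries (replicates 1, 2, 3 and 5) came from mice that had the anaesthesia and exposure of the arteries without a filament. The other libraries came from mice whose right middle cerebral artery was occluded for 35 min and that recovered for 3 h. The hemisphere opposite the occlusion gave 4 contralateral libraries (replicates 1, 2, 4 and 5) and the occluded side gave 5 ipsilateral libraries (replicates 1 to 5). All groups were wild type and carried no transgene. High and low molecular weight AGO complexes were pooled for each library, and whole cortex was used, so fewer cells of a type and less RNA per cell cannot be told apart.

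AGO proteins are guided by microRNAs (miRNAs), whose bases 2 to 8, the seed, pair with target RNA. Stable pairing is found mostly in 3'UTRs, where AGO recruits TNRC6 proteins, through which the poly(A) tail is shortened and translation repressed. A 5'UTR is scanned by the small ribosomal subunit on its way to the start codon, and the DNA upstream of a gene is not part of its annotated mRNA, although neighbouring or unannotated transcripts can cross it.

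The libraries of replicate 1 stood apart. Together these 3 libraries held 50.9% of all tags in peaks, and depth ranged from 3780 tags (ipsilateral 5) to 71027 (sham 1). Peaks in any region were found in 10 of 12 neuron marker genes, 9 of 11 astrocyte markers, 5 of 11 of the oligodendrocyte lineage, 2 of 8 vascular, 1 of 9 microglia and myeloid and 1 of 7 blood markers. Results are given with and without the replicate 1 libraries where they differ.

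Sequence under the 5'UTR peaks was read from GENCODE M21 transcripts (GRCm38, the same assembly as mm10), and miRNAs from RefSeq (GRCm38.p6). A pair of short features recur in the results: seed sites, and unbroken runs of A or T. The first set shows miRNAs whose seeds matched named 5'UTR peaks, with the seed in capitals.
miR-9-5p: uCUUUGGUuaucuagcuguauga
miR-138-5p: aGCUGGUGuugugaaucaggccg
miR-181a-5p: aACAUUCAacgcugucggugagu
miR-218-5p: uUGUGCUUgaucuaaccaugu
miR-26a-5p: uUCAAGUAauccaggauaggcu
let-7a-5p: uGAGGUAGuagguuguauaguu

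The next set shows 30 bases around a matching site, on the strand of the transcript, with the site in capitals. A site is a match to bases 2 to 8, or to bases 2 to 7 followed by A. The Slc20a1 and Tulp4 windows were chosen after their values were seen, as the most covered peak with a site and as a neighbour of the third most covered 5'UTR peak.
Slc1a3, miR-9 site, peak chr15:8708763-8708842, minus strand: tcctctctaacACCAAAGaggagaattcac
Map2, miR-138 site, peak chr1:66362194-66362273, plus strand: ccagaacatacCACCAGCcgtttgagaata
Sparcl1, miR-181 site, peak chr5:104113486-104113565, minus strand: tccaataaacgTGAATGTgcttctaggcaa
Ubl3, miR-218 site, peak chr5:148552067-148552146, minus strand: gggaaaagctcAGCACAAaccgatcagaat
Tulp4, miR-26 site, peak chr17:6138621-6138700, plus strand: tcccgctaagaACTTGAAaatgagaacgga
Slc20a1, let-7 site, peak chr2:129199621-129199700, plus strand: tagcattttgaTACCTCAttccgtttacac

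The third set shows peaks with an unbroken run of A or T, with the run in capitals (a run longer than 30 bases would fill the window). Zfp423 and Cd180 were read from RefSeq promoter windows on the strand of the gene, and the upstream peak nearest Dedd from a transcript of Gm20045 on the minus strand.
Peak upstream of Dedd, chr1:171324630-171324709: aaaccAAAAAAAAAAAAAAAAAAAAgtcca
Peak upstream of Cd180, chr13:102693467-102693546: cccTTTTTTTTTTTTTTTTTTTTTTTTcct
Zfp423, chr8:87959550-87959629: ggcTTTTTTTTTTTTTTTTTTTTTTTTgca
1700052N19Rik, chr10:4432547-4432626: ttAAAAAAAAAAAAAAAAAAAAAAAAAgct
Kmt2d, chr15:98871138-98871217: TTTTTTTTTTTTTTTTTTTTTaaacccccg
Txnl4b, chr8:109565993-109566072: aTTTTTTTTTTTTTTTTTTTTTTTTTTTcc

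For comparison, the central 30 bases of the 3 most covered 5'UTR peaks with neither a run nor a listed site were as follows.
Tulp4, chr17:6138487-6138566: tggaattacattacaaaaaaaactggaatc
Syt1, chr10:108831112-108831191: ttccaaaaggaacaaaaaaacccaaatact
Nrcam, chr12:44456642-44456721: ttaaaacgaaataccacttcttcaagtaag

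The 2 classes differed in how tags were spread over peaks. The 133 5'UTR peaks held 2136 tags (0.541% of all tags), with a median of 11 tags and a maximum of 327. The 109 upstream peaks held 4593 tags (1.16%), with a median of 16 and a maximum of 1034. The 8 most covered peaks of a class held 32.3% of the 5'UTR tags and 47.1% of the upstream tags. This share depends on the number of peaks in a class. It was 30.7% for the 388 peaks of other exons and 27.2% for the 1058 deep intergenic peaks. For the 1006 downstream peaks it was 10.6%, and for all 18284 peaks 7.26%. At least 10 tags over the 13 libraries were reached by 76 5'UTR peaks and 76 upstream peaks. A tag was present in all 3 groups for 101 of 133 5'UTR peaks and 90 of 109 upstream peaks.

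The 5'UTR share of a library's peak tags was nearly level across libraries. In sham it was 0.489%, 0.666%, 0.525% and 0.591% (replicates 1, 2, 3 and 5). In contralateral cortex it was 0.529%, 0.547%, 0.516% and 0.449% (replicates 1, 2, 4 and 5), and in ipsilateral cortex 0.523%, 0.577%, 0.565%, 0.662% and 0.476% (replicates 1 to 5). The 3 groups overlapped, with means of 0.567% ± 0.0782 (SD, n = 4), 0.510% ± 0.0425 (SD, n = 4) and 0.561% ± 0.0689 (SD, n = 5). The exact (Clopper-Pearson) 95% interval ran from 0.439% to 0.543% in the deepest library (sham 1) and from 0.282% to 0.752% in the shallowest (ipsilateral 5). Intervals cover counting error only.

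The upstream share moved over a much wider range, from 0.144% to 1.98%. In sham it was 1.59%, 0.684%, 1.50% and 0.354%. In contralateral cortex it was 1.25%, 0.954%, 0.403% and 0.144%, and in ipsilateral cortex 1.98%, 0.681%, 0.742%, 0.633% and 0.291%. Replicate 1 was the highest library of every group, and replicate 5 the lowest of every group. The groups overlapped, with means of 1.03% ± 0.607 (SD, n = 4), 0.689% ± 0.506 (SD, n = 4) and 0.866% ± 0.648 (SD, n = 5).

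Without replicate 1 the upstream means were 0.844%, 0.500% and 0.587% in sham, contralateral and ipsilateral cortex. The 5'UTR means were then 0.594%, 0.504% and 0.570%. Shares over the members were given no test.

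**Figure D1:**
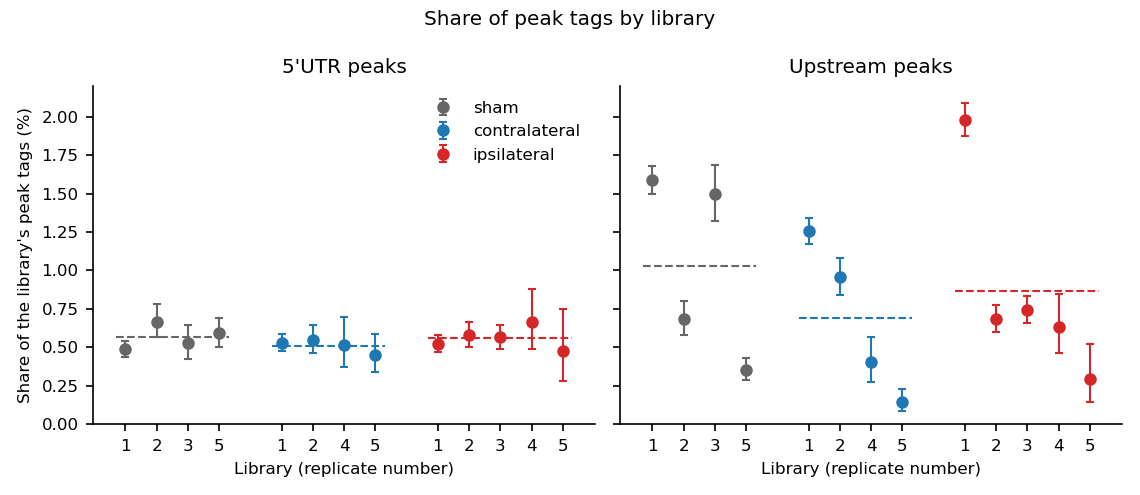
Share of each library's peak tags (percent, y axis) in 5'UTR peaks (left) and upstream peaks (right), by library (x axis, replicate number) and group (colour); bars are exact 95% intervals and dashed lines group means. The 5'UTR points lie between 0.449% and 0.666% in all 13 libraries, and the upstream points between 0.144% and 1.98%, with replicate 1 highest in each group.

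The contribution of replicate 1 to single peaks separated the classes in the same way. Among peaks with at least 10 tags, the median share of a peak's tags from the 3 replicate 1 libraries was 36.2% for 5'UTR peaks and 73.4% for upstream peaks. For comparison it was 33.3% for coding (CDS) peaks, 33.3% for 3'UTR peaks, 40.0% for downstream, 65.5% for intron and 72.2% for deep intergenic peaks. At least 80% of the tags came from replicate 1 in 5 of 76 5'UTR peaks (6.58%), in 22 of 76 upstream peaks (28.9%) and in 7.11% of all peaks. The 5 were in Foxp2, 1700052N19Rik, Kit, Csf1r and Zfp423. By tags, replicate 1 held 48.3% of the 5'UTR class (41.3% without its most covered peak) and 70.2% of the upstream class (63.7% without its most covered peak). What set the replicate 1 libraries apart was not tested.

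**Figure D2:**
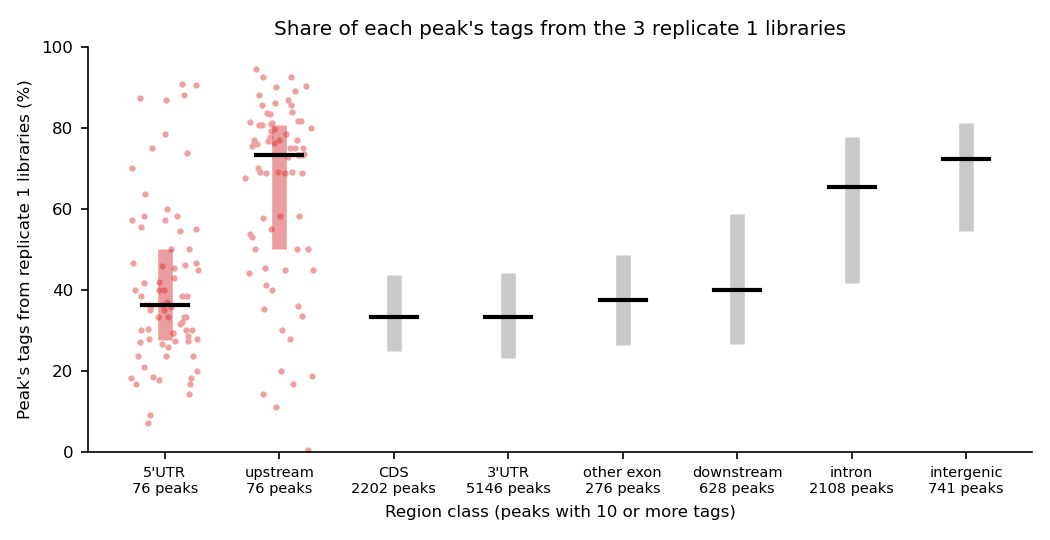
Percent of each peak's tags that came from the 3 replicate 1 libraries (y axis), by region class (x axis), for peaks with 10 or more tags; bars span the quartiles, black lines are medians, and points are single 5'UTR and upstream peaks. The upstream median (73.4%) lies beside those of intron (65.5%) and intergenic (72.2%) peaks, and the 5'UTR median (36.2%) beside those of CDS (33.3%) and 3'UTR (33.3%) peaks.

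In the 5'UTR class the most covered peak was in Zfp423, a zinc finger transcription factor. It had 86, 1, 29 and 3 tags in sham, 85, 1, 0 and 0 in contralateral and 113, 7, 2, 0 and 0 in ipsilateral libraries (replicates in the order above). Per 10000 peak tags of a library, sham 3 (16.2) lay above sham 1 (12.1), and contralateral 1 (12.9) and ipsilateral 1 (17.6) lay far above the other libraries of their groups. Of its 80 bases, 46 lay on the transcript. The middle of these 46 was 338 bases before the start codon and 23 bases from the transcript start.

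The peak in 1700052N19Rik (Armt1 in M21, named as an acidic residue methyltransferase) was also highest in replicate 1, at a lower level. Its tags were 17, 0, 3 and 1 in sham, 20, 0, 0 and 0 in contralateral and 31, 0, 2, 1 and 0 in ipsilateral libraries. All other contralateral libraries were at 0 for it. Sec61a1, a subunit of the channel that moves new proteins into the endoplasmic reticulum, had 52 tags, and Tbata, a gene named for its thymus, brain and testis expression, had 38. Replicate 1 gave 75.0% of the Sec61a1 tags and 73.7% of the Tbata tags.

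The other 4 of the 8 most covered 5'UTR peaks were spread more evenly. In Tulp4, a tubby-like protein, the tags were 5, 6, 3 and 10 in sham, 8, 5, 1 and 5 in contralateral and 4, 9, 6, 1 and 0 in ipsilateral libraries. In Syt1, the calcium sensor of synaptic vesicle release, they were 8, 4, 0 and 7, then 9, 4, 0 and 1, then 10, 3, 8, 4 and 0. The groups overlapped for both genes, and ipsilateral 5 was at 0 for both.

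Nrcam, a neuronal cell adhesion molecule, had 43 tags, with 15 of them in contralateral 1 and 1 in ipsilateral 1. Kmt2d, a histone H3 lysine methyltransferase, had 34 tags, of which replicate 1 gave 17.6%. Among the 5 of these 8 peaks with a long run of A or T, Kmt2d had the lowest share from replicate 1.

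Several transcripts carried more than 1 peak along the same leader. Of the 101 genes, 16 had at least 2 5'UTR peaks. Tulp4 had 6 peaks with 122 tags in all, which was 62.2% of its tags in exonic peaks. Syt1 had 6 with 103 tags, 9.04% of its exonic tags. Sparcl1, an astrocyte-secreted matrix protein, had 4 with 82 tags (12.3%), and Cpeb4, a regulator of cytoplasmic polyadenylation, had 5 with 53 tags (29.4%). The Cpeb4 peaks carried the 5'UTR label but overlapped no 5'UTR annotated in GENCODE M21. In Sparcl1 the summed tags were 7, 14, 0 and 12 in sham, 8, 4, 0 and 0 in contralateral and 4, 13, 19, 1 and 0 in ipsilateral libraries, and the groups overlapped. Some neighbouring peaks overlap each other, so the peaks of a gene do not count as separate evidence.

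Most host genes were also bound elsewhere. A 3'UTR peak was present in 58 of the 101 genes, and 24 had no peak outside the 5'UTR. The 5'UTR held a median of 31.8% of a host gene's exonic tags, and over 50% in 44 genes. These values include the 24 genes, whose exonic tags all lie in the 5'UTR by construction. For genes with a peak outside the 5'UTR the median was 18.2%.

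The most covered upstream peak lay 4476 bases before the start of Dedd, which encodes a death effector domain protein, and inside an annotated exon of Gm20045. It had 319, 8, 22 and 9 tags in sham, 226, 7, 2 and 0 in contralateral and 413, 11, 11, 6 and 0 in ipsilateral libraries. Replicate 1 gave 92.6% of its tags. Within every group the replicate 1 library was the highest.

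Among the other most covered upstream peaks were those before Trub1 (a pseudouridine synthase), Atp2b1 (a plasma membrane calcium pump), Pepd (a peptidase that cleaves proline dipeptides) and Cd180 (a Toll-like receptor homologue), with 178, 164, 155 and 124 tags. Their distances to the gene start were 9556, 6168, 1712 and 52 bases, and replicate 1 gave 90.4%, 75.0%, 80.6% and 80.6% of their tags.

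A peak at chr10:45286304-45286383 went against that layout. It had 1, 9, 5 and 0 tags in sham, 0, 104, 0 and 0 in contralateral and 0, 24, 44, 0 and 0 in ipsilateral libraries. Contralateral 2 alone held 104 of its 187 tags, and replicate 1 held 0.535%. It was not within 10 kb upstream of any M21 protein-coding gene on either strand, and it lay in an annotated M21 intron.

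A pair of overlapping peaks before the olfactory receptor gene Olfr1454 had 179 and 144 tags. The first had 27, 27, 51 and 1 in sham, 9, 4, 2 and 0 in contralateral and 24, 32, 2, 0 and 0 in ipsilateral libraries. Sham 3 was the highest library, and replicate 5 was at 1 or 0 in every group.

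**Figure D3:**
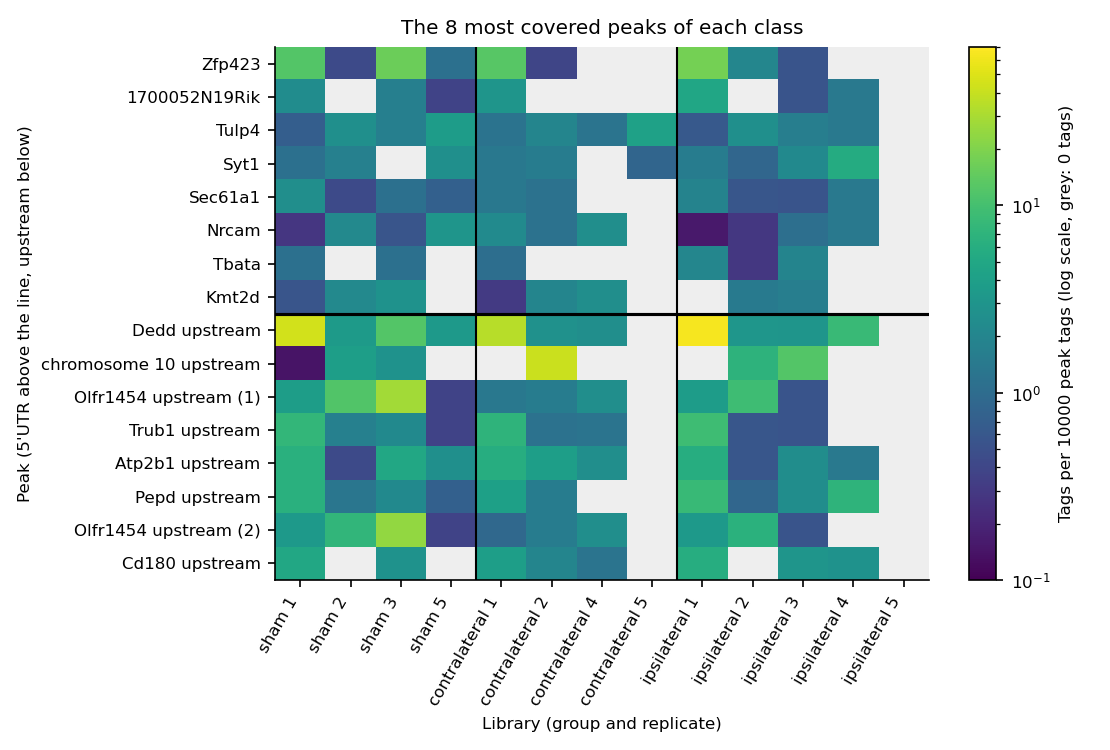
Tags per 10000 peak tags (colour, log scale; grey, 0 tags) in the 8 most covered 5'UTR peaks (above the line) and the 8 most covered upstream peaks (below it), for the 13 libraries (x axis). Zfp423, 1700052N19Rik and the peak upstream of Dedd are highest in replicate 1 within each group, except for Zfp423 in sham (16.2 in sham 3 and 12.1 in sham 1); Tulp4 has tags in all libraries but ipsilateral 5, and the chromosome 10 peak is highest in contralateral 2 (41.2).

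The 5'UTR peaks were placed on M21 transcripts. Of 133, 115 overlapped an annotated 5'UTR, 111 of them that of the gene named in the table, and 84 lay wholly inside it. The other 18 did not, among them the peaks in Sec61a1, Cttnbp2, Kit and Cpeb4. None of the 115 overlapped the start codon of the transcript chosen. Transcripts of the named gene came first, and among them the one with the most 5'UTR bases under the peak. This rule favours transcripts on which a peak stays clear of the start codon, so the lack of overlap is partly set by it. The centre used for these distances was the middle of the part of a peak that lay on the transcript. Its median distance to the start codon was 164 transcript bases (quartiles 81 and 285), in 5'UTRs with a median length of 561 bases. That centre was within 100 bases of the start codon in 35 peaks and within 100 bases of the transcript start in 13.

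The upstream label was not symmetric by strand. Of the 109 upstream peaks, 71 (65.1%) lay within 10 kb upstream of an M21 coding gene on the plus strand only, 2 on the minus strand only, 17 on both and 19 on neither. Among 1058 deep intergenic peaks, 80 lay within 10 kb upstream of a coding gene on the minus strand only and 8 on the plus strand only. Peaks labelled upstream thus lay mainly before genes on the plus strand. The table gives no strand for a peak.

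By distance, 19 upstream peaks lay within 1 kb of the nearest coding gene start, 42 at 1 to 5 kb and 29 at 5 to 10 kb, with a median of 2937 bases. The median share from replicate 1 was 73.9%, 74.3% and 74.2% in those 3 ranges, so it did not track distance. It was 51.7% for the 10 peaks with at least 10 tags and no such gene start. Annotated exons covered 18 upstream peaks and introns 16, while 75 lay outside annotated genes.

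**Figure D4:**
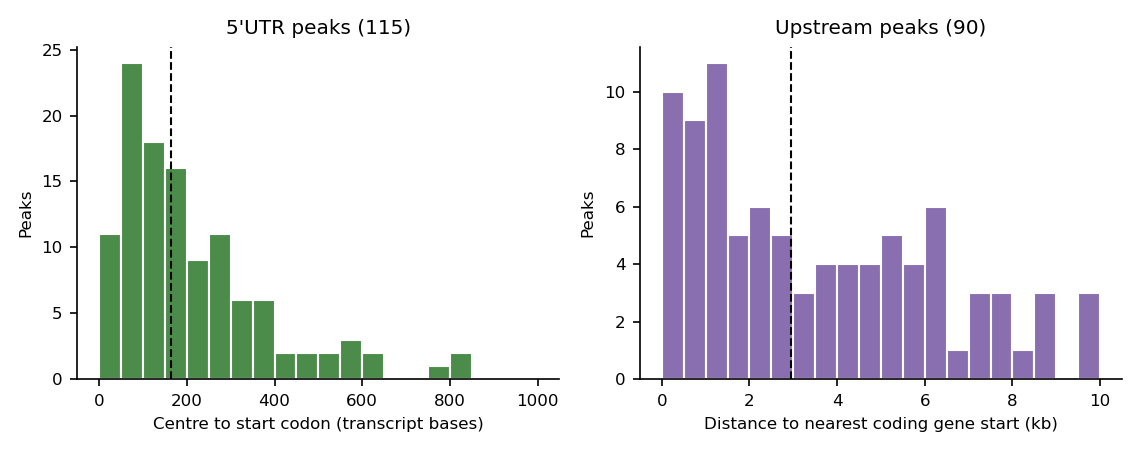
Number of peaks (y axis) by distance (x axis) from the peak centre to the start codon in transcript bases for 115 5'UTR peaks (left), and to the nearest coding gene start in kb for 90 upstream peaks (right); dashed lines are the medians. The 5'UTR median is 164 bases and the upstream median 2937 bases. For a 5'UTR peak partly outside the transcript, the centre is the middle of the part on the transcript.

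Runs of at least 10 A or T were common under the members. In the 5'UTR class 22 of 120 peaks with sequence (18.3%) held a run. These 22 carried 762 tags, 38.3% of the tags of peaks with sequence, and 327 of them lay in Zfp423. The share was 8.67% of 3'UTR peaks, 0.336% of CDS peaks and 6.66% of all peaks with sequence. Runs were about as frequent in intron peaks as in 5'UTR peaks (62 of 344 with sequence). In deep intergenic peaks, 12 of 99 with sequence (12.1%) held a run. These carried 2633 tags, 69.7% of the tags of the 99, while the whole class held 44146 tags. The 344 and 99 are a small part of 3822 intron and 1058 deep intergenic peaks. Of the 22, 21 were read on a transcript of the named gene, where 6 were runs of A and 15 runs of T. The other was Zfp423, a run of T in the promoter window on the strand of the gene. Sequence could be read for 21 of 109 upstream peaks, and 10 of those (47.6%) held a run. The 10 held 1344 tags, 92.2% of the tags of the 21, and 1034 of them lay in the peak before Dedd.

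Of the 8 most covered 5'UTR peaks, 5 held a run (Zfp423, 1700052N19Rik, Sec61a1, Tbata and Kmt2d). Of the 8 most covered upstream peaks, sequence was read for 2 (before Dedd and Cd180), and both held a run.

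The share from replicate 1 moved with the runs. For 5'UTR peaks with at least 10 tags the median was 46.7% with a run (17 peaks) and 35.7% without (53 peaks). For upstream peaks it was 76.9% with a run (7 peaks) and 35.3% without (3 peaks), and for 3'UTR peaks 38.9% and 31.8%. Single peaks departed from this. A peak 158 bases before Plpp3, a lipid phosphatase gene, held a run of 22 T and had 11.1% of its tags from replicate 1. The part of the runs in the share from replicate 1 was not tested.

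**Figure D5:**
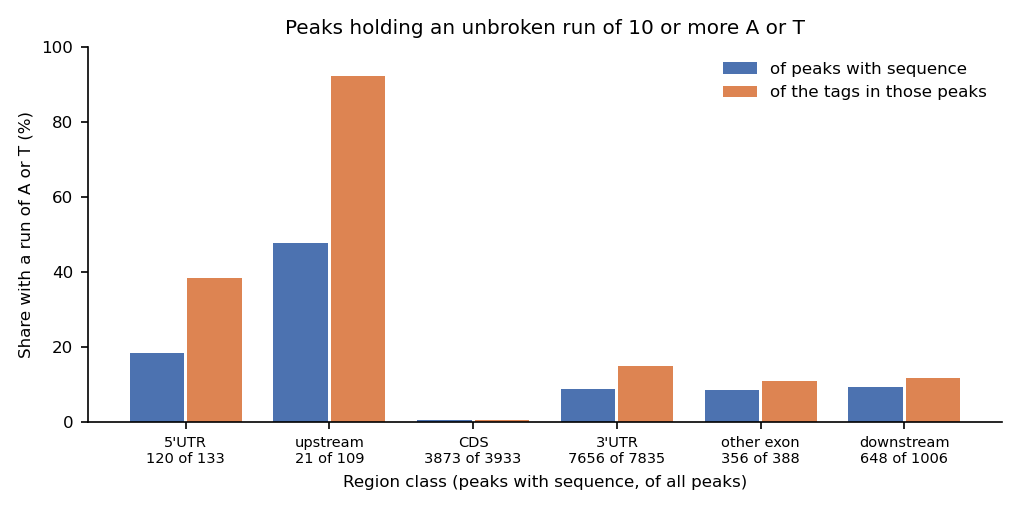
Percent (y axis) of peaks with sequence that held an unbroken run of 10 or more A or T (blue), by region class (x axis, with the number of peaks with sequence). Orange bars are the percent of the tags of all peaks with sequence that lay in peaks with a run. The blue bars reach 18.3% for 5'UTR, 47.6% for upstream, 8.67% for 3'UTR and 0.336% for CDS peaks; the upstream bars rest on 21 of 109 peaks.

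Seed sites were searched in 104 5'UTR windows that had at least 50 bases of transcript sequence, for 19 miRNA families. The miR-124 family was not searched, and miR-23a-3p stood for miR-23. The sites for bases 2 to 8 were CTACCTC (let-7), ACCAAAG (miR-9), TGGTGCT (miR-29), TACTTGA (miR-26), TGTTTAC (miR-30), TGAATGT (miR-181), CTCAGGG (miR-125), CACTGTG (miR-128), AGCAATA (miR-137) and CACCAGC (miR-138). The others were GTCTTCC (miR-7), AAGCACA (miR-218), ACTGTGA (miR-27), AATGTGA (miR-23), TGCTGCT (miR-15/16), GCACTTT (miR-17/20), GACTGTT (miR-132), GACAATC (miR-219) and ATGCTGG (miR-338). The other form drops the first letter and ends in A, which for miR-128 gives the miR-27 letters. Only the transcript strand was searched. A site of any family was found in 29 windows (27.9%), against 33.4% of 3743 CDS windows and 27.5% of 7413 3'UTR windows. The most frequent families in the 5'UTR windows were miR-26 and miR-15/16 (5 windows each), then miR-138 (4). For miR-26 this was 4.81% of windows, against 1.58% in CDS and 2.47% in 3'UTR windows, and 2 of the 5 windows were in Tulp4. For miR-9, the most frequent family in CDS windows (8.04%), 2 of the 5'UTR windows held a site, in Slc1a3 and Mapk10. A match in these letters is a description and not a bound site.

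The median GC content of the 5'UTR windows was 43.8%, between 37.5% for 3'UTR and 47.5% for CDS windows. The letters ATG occurred in 50.0% of the 5'UTR windows, 78.5% of the CDS and 76.3% of the 3'UTR windows.

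Genes of cortical cell types and of the response to ischaemia were looked up in lists. Neuron markers had 5'UTR peaks in 2 of 12 genes (Syt1 and Map2), and astrocyte markers in 2 of 11 (Slc1a3 and Sparcl1), with upstream peaks at a further 2 (Slc1a2 and Gja1). The microglia and myeloid list had 1 of 9, in Csf1r, the colony stimulating factor receptor. Its tags were 4, 1, 1 and 1 in sham, 7, 0, 0 and 0 in contralateral and 10, 0, 0, 0 and 0 in ipsilateral libraries, so replicate 1 held 87.5% of them. The oligodendrocyte, vascular and blood lists had none in either class.

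The glutamate lists had Slc1a3, the glial glutamate transporter GLAST, and Grin2b, an NMDA receptor subunit. Slc1a3 had 3, 1, 0 and 5 tags in sham, 4, 1, 0 and 2 in contralateral and 4, 1, 3, 0 and 0 in ipsilateral libraries, and the groups overlapped. The miR-9 site in its window, shown above, began 83 bases before the start codon. The peak of Slc1a2, the main glutamate transporter of forebrain astrocytes, lay 80 bases before the gene and had 20 tags. Grin2b had 3 5'UTR peaks with 26 tags in all.

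Immediate early genes, which are transcribed within minutes of stimulation, had 5'UTR peaks in 2 of 23 (Dusp1 with 8 tags and Homer1 with 6). The translation list had 1 of 14, Pabpc1, the cytoplasmic poly(A)-binding protein, with 20 tags. The 18 heat shock and unfolded protein response genes had none in the 5'UTR and 1 upstream, at Hspa8. The 17 stress genes regulated by upstream open reading frames, the 14 GABA signalling genes, the 14 miRNA pathway genes and the 9 long noncoding RNA hosts had no peak of either class.

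The 3 comparisons (ipsilateral against sham, ipsilateral against contralateral, and contralateral against sham) were tested peak by peak with edgeR's quasi-likelihood test on all 11253 peaks with at least 10 tags. No member of 152 tested passed the Benjamini-Hochberg adjusted threshold of 0.05 in any comparison, against 0% of all peaks. At an unadjusted p under 0.05 there were 6 members ipsilateral against sham, 5 of 76 5'UTR peaks (6.58%) and 1 of 76 upstream peaks (1.32%), against 3.88% of all peaks. There were 7 ipsilateral against contralateral, 4 of the 5'UTR peaks (5.26%) and 3 of the upstream peaks (3.95%), against 5.21% of all peaks. There were 5 contralateral against sham, 2 of the 5'UTR peaks (2.63%) and 3 of the upstream peaks (3.95%), against 3.6% of all peaks. DESeq2 also called 0. Of 149 members it had 4 (2.68%), 1 (0.671%) and 3 (2.01%) under an unadjusted p of 0.05 in these comparisons, against 0.838%, 1.19% and 0.731% of all peaks. The biological coefficient of variation over all peaks fitted was 0.814.

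With all 13 libraries, the fitted log2 fold changes had medians near those of all peaks for the 5'UTR class. Ipsilateral against sham, ipsilateral against contralateral and contralateral against sham, these were -0.10, 0.25 and -0.23, against -0.11, 0.15 and -0.23 for all peaks. The upstream medians were -0.08, 0.55 and -0.61. Above 0 were 43.4%, 60.5% and 39.5% of the 5'UTR peaks and 44.7%, 72.4% and 23.7% of the upstream peaks, against 45.7%, 55.8% and 40.8% of all peaks. With total tags as library size the medians of all peaks were -0.02, 0.00 and 0.01, and those of the upstream peaks -0.01, 0.47 and -0.44. Without the 3 replicate 1 libraries the 5'UTR medians, over 37 peaks, were -0.42, 0.24 and -0.65. Those of all peaks were then -0.27, 0.15 and -0.34.

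Single replicate 1 libraries turned the direction of the upstream medians. Without sham 1 the contralateral against sham median was 0.21, with 63.1% of 65 upstream peaks above 0. For all peaks it was then -0.04, with 48.6% above 0. Without ipsilateral 1 the ipsilateral against contralateral median was -0.53, with 29.9% of 67 upstream peaks above 0. For all peaks it was then -0.09, with 46.9% above 0. Without contralateral 1 these upstream medians were 1.98 (ipsilateral against contralateral) and -2.15 (contralateral against sham), against 0.58 and -0.68 for all peaks. Leaving out all 3 replicate 1 libraries gave 0.45 and -1.04, over 31 upstream peaks, against 0.15 and -0.34 for all peaks. Removing 1 replicate 1 library also takes that replicate's day of surgery out of 1 group only. With the replicate number as a block these 2 upstream medians were 0.45 and -0.65, against 0.10 and -0.16 for all peaks. The signs of the upstream medians thus held in these 2 settings, and turned only when ipsilateral 1 or sham 1 alone was left out. The upstream median ipsilateral against sham changed sign in 5 alternatives. No difference of medians was tested.

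The smallest p among 5'UTR peaks belonged to Txnl4b, which encodes a thioredoxin-like protein. Its 15 tags were all ipsilateral, with 6, 3, 5, 1 and 0 in replicates 1 to 5, and none in sham or contralateral libraries. Against the limit that 0 tags allow (3 tags over the group) its pooled rate was at least 4.74-fold that of sham and at least 3.79-fold that of contralateral. Without ipsilateral 3 these limits were 4.20 and 3.36. Such limits, here and below, pool the tags of a group and leave out the spread between libraries. The peak reached the filter of 10 tags only through its ipsilateral tags and was named for its small p, so the limits are no separate support. The edgeR adjusted p was 0.660 and 0.542. Its window held a run of 27 T, shown above.

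Cttnbp2, a cortactin-binding protein of dendritic spines, had 10, 0, 0 and 1 tags in sham, 1, 1, 0 and 1 in contralateral and none in ipsilateral libraries. It was at least 3.87-fold lower in ipsilateral than in sham (edgeR adjusted p = 0.660). Sham 1 held most of its tags, and without it 1 sham tag remained and no such limit could be set. The Cttnbp2 peak reached the filter only through its sham tags and was named for a small p, so the limit is no separate support.

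Ubl3, a ubiquitin-like protein, had 0, 4, 1, 5 and 0 tags in ipsilateral libraries, 1 tag in contralateral libraries and none in sham. Its ipsilateral log2 fold change was 2.78 ± 1.20 (SE; edgeR adjusted p = 0.784) against contralateral. Against sham it was 4.31 ± 1.39 (SE; edgeR adjusted p = 0.660). Like Txnl4b, the peak reached the filter only through its ipsilateral tags.

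Among upstream peaks, the one 2374 bases before Yipf1, a Golgi membrane protein gene, had 4, 1, 4, 3 and 0 tags in ipsilateral and 0, 0, 1 and 0 in sham libraries. Its log2 fold change was 2.86 ± 1.24 (SE; edgeR adjusted p = 0.994). The peak 2018 bases before Gm9745 had 0, 4, 3, 0 and 1 ipsilateral tags and none contralateral, which was at least 2.02-fold higher (1.33-fold without ipsilateral 2; edgeR adjusted p = 0.560). Against sham, with 2, 0, 0 and 0 tags, its log2 fold change was 1.67 ± 1.03 (SE; edgeR adjusted p = 0.994). Like Txnl4b, the Yipf1 and Gm9745 peaks reached the filter only through their ipsilateral tags and were named for a small p. The limit for Gm9745 is therefore no separate support.

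The peak 5002 bases before Hspa8, the constitutive heat shock 70 family chaperone, had 3, 4, 0, 0 and 0 ipsilateral tags and none contralateral. This was at least 1.77-fold higher (edgeR adjusted p = 0.578), but without ipsilateral 2 only 3 ipsilateral tags remained and no such limit could be set. Sham libraries had 1, 1, 1 and 0 tags, so sham and ipsilateral libraries overlapped. The Hspa8 peak also reached the filter only through its ipsilateral tags and was named for a small p, so its limit is no separate support.

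Contralateral against sham, the smallest p among 5'UTR peaks fell on an overlapping pair in Syt1. Each peak of the pair reached the filter only through its sham tags. The larger of them had 4, 3, 3 and 2 tags in sham and 0, 0, 1 and 0 in contralateral libraries. Per 10000 peak tags the groups overlapped, since contralateral 4 (1.26) lay above sham 1 (0.563). The fitted difference did not pass (log2 fold change -2.90 ± 1.27, SE; edgeR adjusted p = 1.00). The most covered Syt1 peak, elsewhere in the gene, also had overlapping groups. Among upstream peaks it fell on the Olfr1454 pair, with log2 fold changes of -2.98 ± 1.39 (SE) and -2.86 ± 1.35 (SE) and an edgeR adjusted p of 1.00 for both.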

How the data were processed

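The deposited peak table gives counts, whole numbers of tags per AGO peak and library, not normalized by the authors. Per the submitters' processing notes, reads were aligned to mm10 with Novoalign. Not given in the sources used here were the peak caller, whether duplicate tags were collapsed, and the strand. If duplicates were kept, tags are not independent molecules.

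Of 18285 peaks, 1 without a position was left out. Peaks with at least 10 tags over the 13 libraries (11253, holding 88.0% of tags) were fitted in 1 model with edgeR 4.0.16 in R 4.3.3 (TMM factors, quasi-likelihood test, two-sided, Benjamini-Hochberg over all peaks fitted). DESeq2 1.42.0 was the alternative. Fold changes are on a log2 scale from that model.

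Each set of replicates comes from its own day of surgery, per the series' design text. Same-numbered libraries of different groups correlated at -0.04 to 0.80 (median 0.40, 11 pairs) in their deviations from the group means over 2000 peaks, against a median of -0.03 in 45 other pairs.

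Sites and runs were read from GENCODE M21 transcripts and RefSeq promoter windows. Peaks named in the text are the 8 with the most tags per class, the 2 per class with the smallest p in each comparison, and those with at least 10 tags in listed genes. Other peaks named (such as those in Cpeb4, Foxp2, Kit, Slc20a1, Mapk10, Dusp1 and Homer1 and before Plpp3) were chosen after their values were seen. Members, lists and rules were chosen with earlier results of these data known.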

Additional observations from a re-analysis of the deposited data

Results flagged for a closer look

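In 54 groups of 4 or 5 libraries (the shares of both classes and the rates of the 16 most covered peaks), 9 had 1 library whose gap to the nearest other library was most of the group's range (Dixon's ratio above 0.829 for 4 libraries or 0.710 for 5). For independent, normally distributed values chance flags about 1 group in 20. These groups share the same libraries and rest on low counts, many with no tag, so that rate need not hold here. In 8 of the 9 that library was a replicate 1 library. Rates below are tags per 10000 peak tags of the library.

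The upstream share of ipsilateral 1 was 1.98% of peak tags, against 0.291% to 0.742% in the other ipsilateral libraries. The Zfp423 5'UTR peak reached 12.9 in contralateral 1, against 0 to 0.396 in the others, and 17.6 in ipsilateral 1, against 0 to 2.01. The 5'UTR peak of 1700052N19Rik was at 3.04 and that of Tbata at 1.06 in contralateral 1, with 0 tags in the other contralateral libraries. The peak upstream of Dedd reached 34.4 in contralateral 1, against 0 to 2.77, and 64.3 in ipsilateral 1, against 0 to 8.44. The peak upstream of Trub1 was at 9.19 in ipsilateral 1, against 0 to 0.574. The chromosome 10 peak, the 1 case outside replicate 1, was at 41.2 in contralateral 2, with 0 tags in the other contralateral libraries.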

How the results depend on the processing

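Of 439 alternative values for 27 results, 375 kept their direction and their side of the threshold or stayed within the spread between libraries, 54 moved and 10 reversed. All 10 reversals were of the median log2 fold changes of the 2 classes, whose alternatives were added after seeing the data. With each library, or all 3 of replicate 1, left out, the 5'UTR medians ran from -0.42 to 0.16 (ipsilateral against sham), -0.078 to 0.38 (ipsilateral against contralateral) and -0.80 to 0.016 (contralateral against sham). The upstream medians ran from -1.19 to 0.70, -0.53 to 1.98 and -2.15 to 0.21. Under filterByExpr the upstream median ipsilateral against sham was 0.10, over 3 peaks. The count of members called was 0 in each comparison under every alternative run: DESeq2, total tags as library size, no filter, the filterByExpr filter (4 members kept), only the 2 groups compared, the replicate number as a block, each library left out (0 to 0), and without replicate 1. With the replicate block 0 members were called in each of the 3 comparisons, and it changed no other call. The fitted changes of the peaks named for a small p could not be recomputed under filterByExpr, which dropped those peaks and kept 1 5'UTR and 3 upstream members. With exonic peak tags as denominator the 5'UTR share was 1.05%, 0.834% and 0.958% in sham, contralateral and ipsilateral libraries, and the upstream share 2.21%, 1.27% and 1.87%. With each member counted at most 5 tags a library the 5'UTR share was 0.475%, 0.463% and 0.491%. These 2 settings change the denominator or cap the tags by construction. The median 5'UTR peak had 11 tags over 13 libraries, which limits what single peaks can show.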
